A study of Homo sapiens with 2 samples.

Results

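The mitochondrial ribosomal protein genes are the nuclear genes whose symbols begin with MRPL, for the large subunit, or MRPS, for the small subunit, followed by a number and at most a letter A, B or C. Each peak of the deposited list was given to the gene named in its exon or intron annotation, or else to the gene with the nearest start, and symbols were linked to gene identifiers within the list. By that rule 70 of the 78 genes with such symbols had a peak, and these held 424 of the 175546 peaks and 70 of the 19480 genes in the list. For comparison, 14511 of 20056 protein-coding genes had a row, and such rows can lie outside the gene. Of the 70 genes, 45 were MRPL genes (of 49) and 25 were MRPS genes (of 29). No row was given to MRPL9, MRPL53, MRPL57, MRPS2 or MRPS18B. A further 3 genes, MRPL23, MRPS6 and MRPS9, had 14 peaks that could be named only through their RefSeq identifiers, so they fell outside the rule.

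The mitochondrial ribosome translates the few messenger RNAs that the mitochondrial genome encodes, which specify core subunits of the respiratory chain and of the ATP synthase. Its RNAs come from mitochondrial DNA, but its proteins are encoded in the nucleus, translated by cytosolic ribosomes and imported, so a peak in one of these genes marks a nuclear-encoded transcript. Several of these proteins have bacterial counterparts, and others, such as the pentatricopeptide-repeat protein MRPS27, have none.

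The series compared RNA that came down with CRTC2, a protein that assists CREB in activating genes, with input RNA from HCCLM3, an established line of human liver cancer cells (hepatocellular carcinoma) labelled wild type (WT). There was 1 CRTC2 RNA immunoprecipitation (RIP) library and 1 input library, both extracted with the Magna RIP kit and prepared with the SMARTer stranded pico-input total RNA kit. The series' stated purpose concerns CRTC2 together with YTHDF2, which binds RNA carrying N6-methyladenosine, and the RIP was made to find transcripts associated with CRTC2. No precipitation with a control antibody was analysed here, so RNA bound to CRTC2 and RNA carried through the precipitation cannot be told apart, and with 1 library per arm no difference has a replicate check and no test was made.

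Each fold is the authors' own value for a peak, their enrichment ratio at its summit, taken here as RIP against input, and each q is the authors' adjusted p from their peak caller. From the fold and the p, the RIP fragments behind each summit were recovered, because both values depend on that count and on the local input level alone, with 1 added to each in the fold. A summit with few fragments therefore has a ceiling: 157 of the 424 peaks rested on 1 fragment, and no peak of 1 fragment could exceed a fold of 1.94. There is also a lower limit, since no peak of the list had a −log10 p below 1.3. Every listed fold is thus above 1 by selection, and the lowest fold that can enter falls as fragments rise. The interval after each fold is an exact Poisson 95% interval of those fragments with the input level held fixed, and it covers counting error only, since amplified reads are not independent molecules. The totals of the libraries are not in the list, so the fragments at each summit are the depth behind each value. The cells were measured in bulk, so fewer cells with a transcript and less of it per cell cannot be told apart. Of 14 hepatocyte and liver cancer markers, 10 had a peak inside the gene (71.4%), against 60.3% of protein-coding genes. ALB, serum albumin, reached a fold of 3.67 on 5 fragments at a q of 0.423. APOB reached 3.88 on 3 fragments in a peak 6408 bp wide, at a q of 0.00426. TF, FGB and KRT8 reached only 1.94 on 1 fragment. APOA1 and TTR had rows but no peak inside, and APOA2 and SERPINA1 had no row. Of 11 markers of leukocytes, endothelium and fibroblasts, 4 had a peak inside (36.4%). Among these PECAM1 reached 3.88 on 3 fragments in a peak 21396 bp wide, also at a q of 0.00426. These are peaks over input, not expression levels.

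Of the 8 promoter-class peaks inside members with a fold of at least 3, 4 began within the first 30 transcribed bases, in MRPS10, MRPL19, MRPL49 and MRPS15. The others were in MRPL54, 66 bp after the start, in MRPL44 and MRPL28, 2515 and 2832 bp after it, and in MRPL2, where the peak covers the assigned start and the sequence table has no entry. The 4 start regions are shown to place the RIP signal against the start of the transcript: each runs from 70 bases before to 30 bases after the RefSeq start (assembly GRCh38.p14, the same build as hg38), and capitals mark the bases that lie inside the deposited peak. The regions are chr6:42217832-42217931 (minus strand) for MRPS10, chr2:75646713-75646812 (plus strand) for MRPL19, chr11:65122251-65122350 (plus strand) for MRPL49 and chr1:36464355-36464454 (minus strand) for MRPS15.
MRPS10: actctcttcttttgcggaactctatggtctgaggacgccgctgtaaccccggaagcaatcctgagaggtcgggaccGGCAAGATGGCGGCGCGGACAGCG
MRPL19: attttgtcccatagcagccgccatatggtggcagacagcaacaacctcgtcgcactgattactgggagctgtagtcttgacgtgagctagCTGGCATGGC
MRPL49: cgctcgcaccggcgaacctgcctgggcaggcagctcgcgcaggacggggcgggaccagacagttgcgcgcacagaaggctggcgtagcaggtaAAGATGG
MRPS15: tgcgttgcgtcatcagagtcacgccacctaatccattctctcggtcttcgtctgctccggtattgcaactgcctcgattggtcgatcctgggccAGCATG
The peaks began at transcribed base 7 in MRPS10, 21 in MRPL19, 24 in MRPL49 and 25 in MRPS15; a beginning within the first 30 bases is what chose these 4. A like placement was seen at lower folds and more fragments in MRPL38 (from base 6, 15 fragments, fold 1.52), MRPS26 (from base 9, 17 fragments, fold 1.95) and MRPL51 (from base 18, 21 fragments, fold 1.54). Their regions, chosen after their values were seen, are chr17:75904855-75904954 (minus strand), chr20:3045982-3046081 (plus strand) and chr12:6493233-6493332 (minus strand).
MRPL38: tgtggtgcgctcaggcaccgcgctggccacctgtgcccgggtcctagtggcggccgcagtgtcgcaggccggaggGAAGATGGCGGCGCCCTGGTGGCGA
MRPS26: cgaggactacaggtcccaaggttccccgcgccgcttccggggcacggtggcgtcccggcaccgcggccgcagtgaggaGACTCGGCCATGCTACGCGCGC
MRPL51: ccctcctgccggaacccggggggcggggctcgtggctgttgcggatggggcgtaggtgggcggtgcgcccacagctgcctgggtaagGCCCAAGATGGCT
Start windows of 300 bases (250 before to 50 after the start) were given for 63 of the 70 genes, as 78 windows of alternative starts. Of the 19 peaks that overlapped a window, each in a different gene, 11 began within the first 30 bases transcribed from that window's start, 4 covered that start and 1, in MRPL14 with 1 fragment, lay wholly before it. A window holds only 50 transcribed bases, so a peak that begins after the start can overlap it only by beginning within those. The count of 11 is thus largely set by the window, and it was not made for other genes. A gene can have several starts: the MRPL14 peak precedes only that of the window it touches, and lies 154 bp after the start the authors assigned, inside the gene.

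The same windows were searched on both strands for letters that transcription factors are known to bind, since CRTC2 is a coactivator of CREB, which binds cAMP response elements. The full element TGACGTCA was found in 1 of 78 windows (1.28%), in MRPL4, against 1.85% of all 35116 windows in the table. The shorter TGACG, which the full element contains, was in 27 windows (34.6%), against 24.6% of all windows. CCGGAAGT, a form of the site of ETS factors, a family long known to act on nuclear genes for mitochondrial proteins, was in 13 windows of 11 genes (16.7%), against 4.14% of all windows. The stretches around the element in MRPL4, chr19:10252142-10252213 (plus strand), and around the ETS letters in MRPL47, chr3:179604639-179604717 (minus strand), are shown with the matched letters in capitals.
MRPL4: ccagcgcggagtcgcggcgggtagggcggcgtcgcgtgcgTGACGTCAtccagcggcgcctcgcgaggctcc
MRPL47: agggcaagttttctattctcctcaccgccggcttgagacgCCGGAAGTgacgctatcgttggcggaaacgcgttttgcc
These are matches of letters in DNA and say nothing of the RNA that was precipitated. The peak of MRPL47 described below lies 10.8 kb downstream of its start.

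Not every peak given to a member lay in it. A peak counts as inside if it is annotated to an exon or intron of the member or if its summit lies within the transcript that the authors assigned to it. That held for 328 of the 424 peaks, in 69 genes, and the other 96 peaks (22.6%) are called outside, 46 of them within another RefSeq gene. The share outside was like that of the whole list, where 77.4% of peaks lay inside. Of these 96, 4 promoter-class peaks (in MRPL24, MRPL34 and MRPL44) lie before the assigned transcript but within the wider RefSeq span of the member. MRPL27 had no peak inside. For 11 members the row with the highest fold lay outside the gene. One was MRPL30, with 3.50 at an intergenic peak 19.6 kb from the start and 2.45 inside. MRPS10 also had a 5′ UTR row at fold 3.71 that lies in TRERF1, at −82.8 kb from its start. The results below use the 328 peaks inside, of which 47 also lay in another RefSeq gene, unless stated.

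Inside the member genes the fold ranged from 1.41 to 4.85 with a median of 1.82, against a median of 1.89 over the 135920 peaks inside any gene. The members' summits were deeper, with a median of 4 RIP fragments against 2, and 35.1% rested on 1 fragment against 44.8%. A fold of at least 3 was reached by 24 peaks in 18 genes (7.32%, against 8.56% of all peaks inside genes), with at most 12 fragments each and 5 or fewer in 14 of them. The lower bound of the interval was above 1 for 81 of the 328 peaks (24.7%), against 26.6% of all peaks inside genes.

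At q of at most 0.05 there were 3 member peaks of 424 (0.708%), against 1.63% of all peaks in the list. They were in MRPL35, MRPS27 and MRPL1, all in exons away from the start. The q was 1 for 92.7% of the peaks inside members, against 88.8% of all peaks inside genes. By gene, 3 of the 69 members with a peak inside had such a peak, against 14% of the protein-coding genes with a peak inside the gene.

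MRPL35 (gene ID 51318), a protein of the large subunit, held the member peak of highest fold. It lay in exon 2 of 5 at chr2:86206150-86206302 (hg38), with 7 RIP fragments against an input level of 0.648, a fold of 4.85 (2.31 to 9.36) and a q of 0.0239. Its other 4 peaks had folds from 1.53 to 2.21 on 1 to 4 fragments, all lower than in exon 2.

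MRPS27 (gene ID 23107), the pentatricopeptide-repeat protein of the small subunit, had 13 peaks over its length, 8 of them in exons. The peak in exon 3 of 12, chr5:72297613-72297653, had a fold of 4.47 (1.87 to 10.06) from 4 RIP fragments against an input level of 0.118, with a q of 0.0119. Of the other peaks in MRPS27, the 5′ UTR peak reached 3.06 (1.28 to 6.88) on 4 fragments and exon 11 reached 2.65 (1.16 to 5.59) on 5. The peaks reported in exons 4 and 5 were 41615 and 16307 bp wide with 1 fragment each, so they cannot be placed on an exon.

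MRPL1 (gene ID 65008), which forms the L1 stalk where spent transfer RNA leaves the ribosome, had neighbouring exon peaks. Exon 4 of 9, chr4:77885273-77885344, had 3 fragments, a fold of 3.78 (1.53 to 9.22) and a q of 0.0259. Exon 3, chr4:77883306-77883502, had 4 fragments and a higher fold of 3.92 (1.64 to 8.82), but a q of 0.129. The input level was 0.0589 at exon 4 and 0.275 at exon 3. The other 7 peaks of MRPL1 held 1 fragment each.

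The remaining members among the 10 of highest fold lay at q from 0.0924 to 0.353. MRPL2, a core protein near the peptidyl transferase centre of the large subunit, had a promoter-class peak over its annotated start, chr6:43059264-43059696, with 6 fragments and a fold of 4.28 (1.96 to 8.61). MRPL47, of the large subunit, had 8 fragments in exon 5 of 7, chr3:179593763-179593807, at 3.97 (1.96 to 7.39). MRPS10, in the head of the small subunit, had the same fragments and fold at the start-region peak shown above, chr6:42217798-42217855. MRPL44, a large-subunit protein with an RNase III-like fold, reached 3.88 (1.85 to 7.48) on 7 fragments, 2515 bp downstream of its start.

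MRPL28, also of the large subunit, reached 3.79 (2.0 to 6.68) on 10 fragments at 2832 bp from its start, where LOC112268373 overlaps. MRPL54 reached 3.73 (1.63 to 7.87) on 5 fragments, 66 bp from its start. MRPL19, of the large subunit, reached 3.68 (2.04 to 6.21) on 12 fragments at chr2:75646803-75646933, with a q of 0.0924, and it was the deepest of the member peaks with a fold of at least 3. All 10 intervals overlapped one another, so the order of these genes is not resolved at this depth.

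Among the 24 peaks with a fold of at least 3, 8 were in exons, 8 in the promoter class, 5 in 3′ UTRs, 2 in introns and 1 in a 5′ UTR. The other members that reached 3 were MRPS25 (3.67), MRPS28 (3.65), MRPS17 (3.63), MRPS30 (3.62), MRPL39 (3.58), MRPS15 (3.40), MRPL42 (3.24) and MRPL49 (3.11). The plot of the highest peak in each gene shows all 69 members with their intervals.

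**Figure D1:**
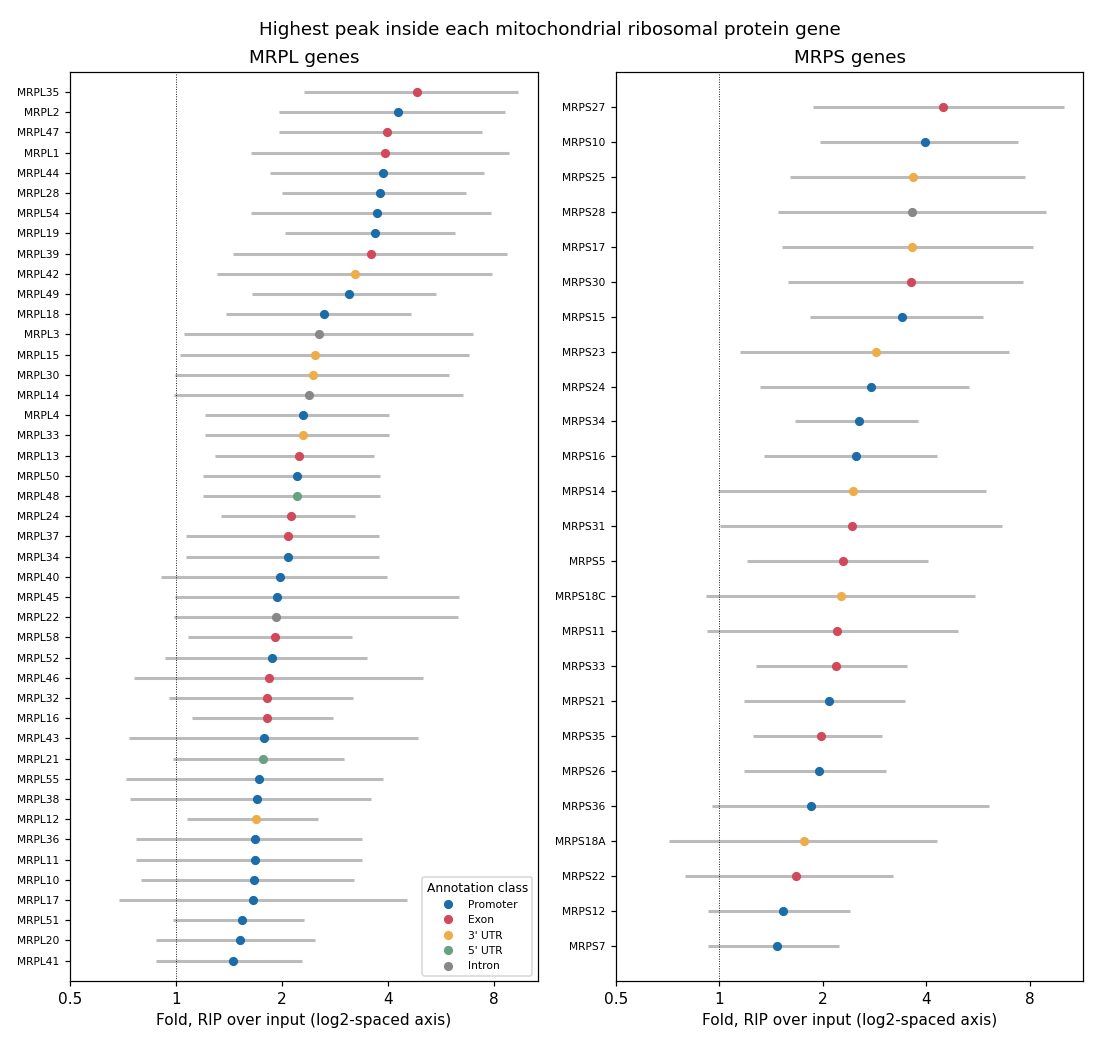
Highest fold of RIP over input inside each of 69 mitochondrial ribosomal protein genes, MRPL on the left and MRPS on the right, on a log2-spaced axis. Points are coloured by annotation class, grey bars are exact Poisson 95% intervals for counting error, and the dotted line is a fold of 1; the points run from 1.45 to 4.85 and most bars overlap.

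The highest fold inside a gene had a median of 2.21 over the 69 members (quartiles 1.81 and 3.11), and it was at least 2 in 42 genes and at least 4 in 3. By symbol, the 44 MRPL genes had a median of 2.11 (1.45 to 4.85) and 11 reached 3. The 25 MRPS genes had a median of 2.43 (1.47 to 4.47) and 7 reached 3. MRPS genes were longer, with a median of 12.3 kb against 8.27 kb, and had more peaks, with a median of 4 against 2.5, and the part of length in the difference was not tested. Symbols do not follow the structure throughout. MRPS30 and MRPS18A sit in the large subunit, and MRPS36, named KGD4 in RefSeq, belongs to the 2-oxoglutarate dehydrogenase complex. With these moved, the medians were 2.11 for 46 large-subunit genes and 2.44 for 22 small-subunit genes.

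Among the 5 members with the deepest summits, ties included, folds were mostly low, where the list admits lower folds than at shallow summits. MRPS34, a small-subunit protein, had its only peak 208 bp from its start, with 23 fragments, a fold of 2.56 (1.66 to 3.78) and a q of 0.128. MRPS35, also of the small subunit, had 23 fragments in exon 6 of 8 at a fold of 1.54 (1.0 to 2.28) and 21 in exon 5 of 7 at 1.98 (1.26 to 2.97). MRPL50, of the large subunit, had 21 fragments in exon 2 of 2 at 2.09 (1.33 to 3.15). MRPL12, whose bacterial counterpart forms the stalk that recruits translation factors, had 4 peaks with 19 to 21 fragments and folds from 1.41 to 1.69.

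MRPS5, of the small subunit, had 21 fragments in a 5′ UTR peak at 1.87 (1.19 to 2.81), and MRPL51 had 21 at its start at 1.54 (0.979 to 2.31). MRPL24, of the large subunit, had 21 fragments at 1.77 (1.13 to 2.67) inside the gene, and 3 deeper peaks of 25 to 27 fragments lie before the assigned transcript in HDGF, the one of 26 fragments also within the RefSeq span of MRPL24. In all, 32 peaks in 20 member genes had at least 15 fragments, with a median fold of 1.58 and a highest fold of 2.83 (MRPS23, exon 3 of 5, 18 fragments, 1.74 to 4.39). The lower bound was above 1 for 16 of the 32, all of which had already passed the p limit of the list. That count was not made for the deep peaks of all genes. Such deep summits made up 9.76% of member peaks and 3.89% of all peaks inside genes, where their median fold was 1.71.

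**Figure D2:**
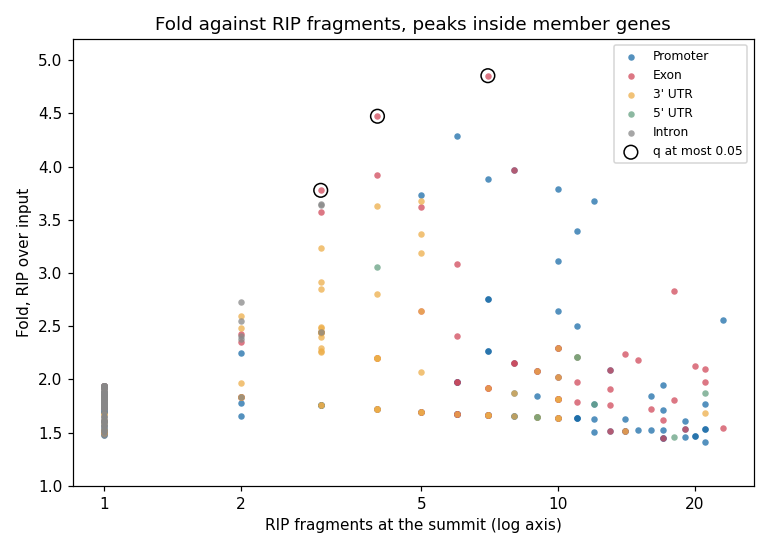
Fold of RIP over input against RIP fragments at the summit (log axis) for the 328 peaks inside member genes, coloured by annotation class, with rings on the 3 with a q up to 0.05. The 1-fragment peaks are mostly intronic and stay under a fold of 2, the folds of at least 3 lie between 3 and 12 fragments, and the 32 summits of 15 or more fragments lie between 1.41 and 2.83.

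The number of peaks followed gene length. Genes under 5 kb (18 genes) had a median of 2 peaks inside and a median highest fold of 1.77, those of 5 to 20 kb (36 genes) had 3 peaks and 2.24, and those over 20 kb (15 genes) had 11 peaks and 2.43. Over the 69 genes the Spearman correlation of length with number of peaks was 0.71, and that of number of peaks with highest fold was 0.53. Both are descriptions across genes of a single pair of libraries, and a longer gene offers more places for a peak.

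MRPS28, a small-subunit protein, had 27 peaks, the most of any member, and 22 were inside its 112 kb. Of the inside peaks 21 were intronic and 17 rested on 1 fragment. The intronic folds had a median of 1.84, and a pair of peaks 71.9 and 74.7 kb from the start reached 3.64 and 3.65 on 3 fragments each. The read-through gene TPD52-MRPS28 covers the same introns, so the transcript behind these reads was not resolved.

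MRPL42, of the large subunit, had 25 peaks, 11 of them in the 3′ UTR. Its 3′ UTR folds had a median of 2.44 and ran from 1.5 to 3.24 on 1 to 10 fragments. MRPL19 also had 11 peaks in the 3′ UTR among 16 in all, at 1.64 to 3.36 (median 2.21) on 3 to 10 fragments. MRPS25, of the small subunit, had 10 such peaks among 19, at 1.70 to 3.67 (median 2.24) on 2 to 9 fragments, and all 10 lie within NR2C2 as well. These 3 genes held 32 of the members' 64 peaks in 3′ UTRs, and the other 32 were spread over 22 of the 25 genes with one.

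MRPS30 had 23 peaks, of which 4 were inside its 6.57 kb. The inside peaks had folds of 1.67, 1.76, 3.62 and 1.72 in order along the transcript, on 7, 3, 5 and 4 fragments, and the highest was in exon 4 of 5 (chr5:44813199-44813286). After the gene a run of 18 intergenic peaks lay 6.90 to 21.8 kb from the start, with folds from 1.62 to 3.06 (median 2.14) on 1 to 4 fragments. Of the 18, 14 had at least 2 fragments and 4 had a lower bound above 1. A last row, called 3′ UTR, was 430450 bp wide with 1 fragment. RefSeq places no gene at the 18 summits. Whether they belong to a longer MRPS30 transcript or to another RNA was not tested.

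**Figure D3:**
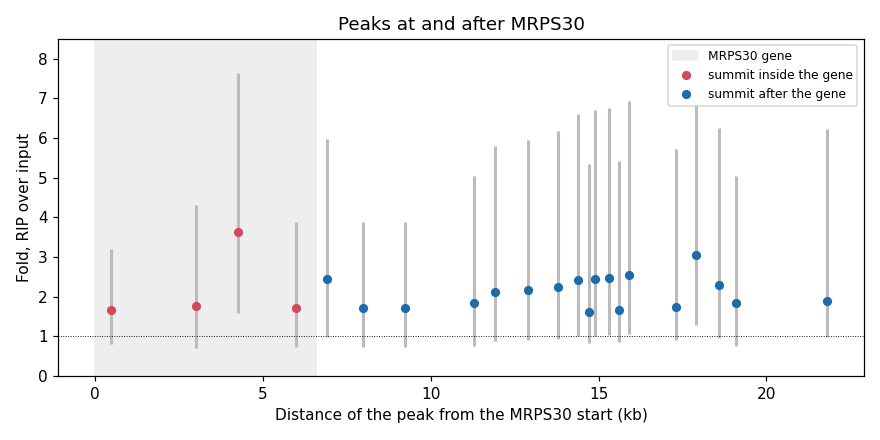
Fold of RIP over input against distance from the MRPS30 start (kb) for 22 of its 23 peaks, leaving out the row 430450 bp wide. The gene is shaded, vertical bars are exact Poisson 95% intervals for counting error, and the dotted line is a fold of 1; the run of peaks goes on to 21.8 kb, and the peak in exon 4 at 3.62 is the highest.

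By annotation class, 95 of the 328 peaks inside members were promoter class (29.0%, exact Clopper-Pearson 95% interval 24.1 to 34.2%), 90 intron (27.4%), 73 exon (22.3%), 64 3′ UTR (19.5%) and 6 5′ UTR. Over all peaks inside genes the promoter class made up 16.6%, introns 34.4%, exons 39.2% and 3′ UTRs 7.55%. These shares depend on the inside rule, which takes every exon and intron row but takes UTR and promoter rows only by their summit. It kept 64 of the members' 97 3′ UTR rows and 10256 of 24304 in the list. Over all rows, 3′ UTRs made up 22.9% for members and 13.8% for the list, and the promoter class 25.5% and 20.9%. The promoter class takes any peak within 3000 bp of a start, so a short gene can lie in it whole. The members' median length was 9.17 kb, against 32.4 kb for protein-coding genes with a peak, and the part of length was not tested. Of the members' intron peaks, 82 of 90 had 1 fragment (91.1%, against 85.8% of all intron peaks). Of their exon peaks, 9 of 73 did (12.3%, against 15.6% of all exon peaks). The members' exon peaks had a median of 7 fragments and a median fold of 1.92, against 4 and 1.94 over all exon peaks.

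Promoter-class summits mostly lay inside the assigned transcript, with 95 of the members' 108 promoter rows (88.0%, against 61.8% of promoter rows in the list), and 99 lay inside it or the RefSeq span. Of these 95 summits, 62 were within 1000 bp of the assigned start and 25 within 100 bp. Among the 73 exon peaks, 4 were annotated to other than coding transcripts. Of the 69 on coding transcripts none was in a first exon and 10 were in the last exon (14.5%), against 6.06% of exon peaks of coding transcripts in the list. First exons near a start fall into the promoter class by construction. The share in last exons depends on the number of exons per gene, which was not compared.

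**Figure D4:**
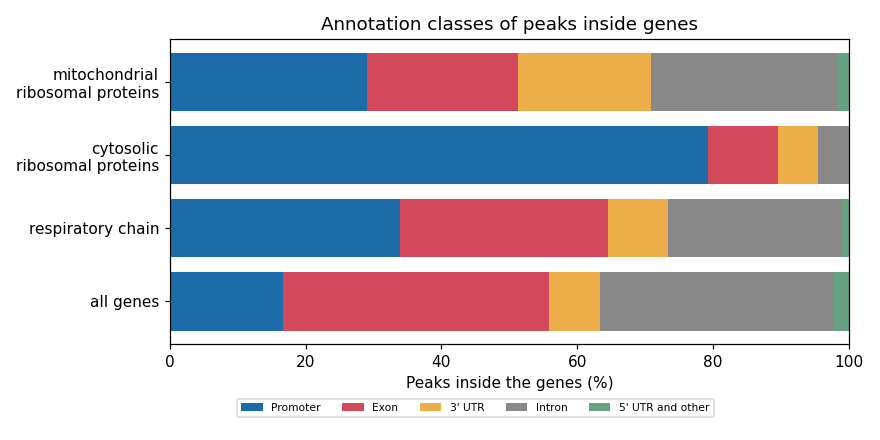
Share of peaks inside genes (%) by annotation class for mitochondrial ribosomal protein genes, cytosolic ribosomal protein genes, nuclear-encoded respiratory chain genes and all genes. The promoter class makes up 29.0%, 79.2%, 33.9% and 16.6% of peaks in that order, and 3′ UTRs 19.5%, 5.83%, 8.70% and 7.55%. Over all rows, inside or not, 3′ UTRs made up 22.9% for mitochondrial ribosomal protein genes and 13.8% for the list.

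An exonic peak, in an exon or UTR of the gene and outside the promoter class, was found in 45 of the 78 genes (57.7%), against 49.1% of protein-coding genes. A peak of any class inside the gene was found in 69 of 78 (88.5%), against 60.3%. Both shares count MRPL23, MRPS6 and MRPS9 as without a peak, because the rule does not link their symbols. All 3 had peaks inside, and with RefSeq links 47 genes had an exonic peak. For 22 members every peak inside was promoter class, so the exonic count leaves them out. The members' peaks were fewer per gene (median 3 against 7 for protein-coding genes with a peak) and their deepest summits deeper (median 10 fragments against 6). Their highest folds were lower, with a median of 2.21 against 2.91, and 18 of 69 reached 3, against 44.8% of protein-coding genes. Gene length and depth differed along with the fold, and their part was not tested.

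The proteins of the cytosolic ribosome gave another profile. A peak lay inside 77 of 79 genes, with a median highest fold of 1.99 and a median deepest summit of 28 fragments, and an exonic peak was found in 25 (31.6%). Their 240 peaks were promoter class in 79.2% of cases, and the genes were shorter, with a median of 5.01 kb. In 10 of the 79 there was a peak at q of at most 0.05, against 3 of 78 mitochondrial ribosomal protein genes. The nuclear-encoded respiratory chain was closer: 69 of 76 genes had a peak inside and 50 an exonic peak, with a median highest fold of 2.24, a median deepest summit of 16 fragments and 1 gene at that q. Of all 20056 protein-coding genes, 1690 had a peak inside at q of at most 0.05. The differences between lists were not tested.

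**Figure D5:**
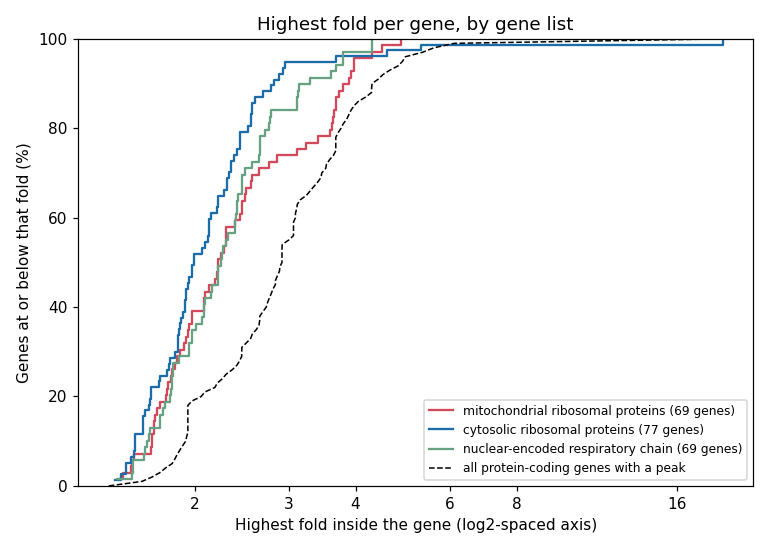
Cumulative share of genes (%) by the highest fold inside the gene (log2-spaced axis) for 69 mitochondrial ribosomal protein genes, 77 cytosolic ribosomal protein genes, 69 respiratory chain genes and, dashed, all protein-coding genes with a peak. The medians are 2.21, 1.99, 2.24 and 2.91, and the curve of all protein-coding genes lies to the right of the others over most of its range.

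Proteins that work with the mitochondrial ribosome under other symbols were counted in the same way. Of protein-coding genes 60.3% had a peak inside and 49.1% an exonic peak, and the median highest fold of those with a peak inside was 2.91. All 5 structural proteins listed had a peak inside, none at q of at most 0.05, and the highest folds were 2.79 for DAP3, a GTP-binding protein of the small subunit, 2.65 for PTCD3, a pentatricopeptide-repeat protein of the small subunit, and 2.26 for CHCHD1. Among 14 translation factors all had a peak inside and 13 an exonic peak, with a median highest fold of 2.84. Their genes had a median length of 26.6 kb, and the part of length was not tested. LRPPRC, which stabilises mitochondrial messenger RNAs, reached 4.85 (2.56 to 8.55) on 10 fragments in exon 6 of 38 with a q of 0.00826. GFM2, a ribosome-recycling factor, reached 3.54 and MTFMT, which formylates the initiator transfer RNA, 3.40. Of 24 assembly factors (median length 17.3 kb) 21 had a peak inside and 17 an exonic peak, with a median highest fold of 2.65. RPUSD4, a pseudouridine synthase acting on mitochondrial RNA, reached 4.32 at a q of 0.0333, TRUB2, of the same enzyme class, 4.11, and MTERF3 3.78.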

How the data were processed

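The deposited list holds peaks of 1 CRTC2 RIP library and 1 input library of HCCLM3 cells. Per the submitters' processing notes HISAT2, MACS2 and hg38 were used; their versions and parameters: not given in the sources used here. Per the file headers, the authors' deposited values per peak are a fold (a linear ratio), a −log10 p and a −log10 q (p-value and q-value), a score, which was not used, and coordinates, annotation and distance to the start. The headers of the −log10 columns were spoiled, so they were identified by place and values. Whole RIP fragments were recovered with a pseudocount of 1 and a Poisson tail; 100% of peaks were met within 0.001, and a single number met 96.0% of member peaks. Fragments and intervals were computed in Python 3.11.15 with pandas 2.3.3, numpy 2.4.6 and scipy 1.17.1, after tests on simulated data. No sample columns were left unused (0).

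Members and lists were chosen with earlier results of these data known. Named genes were those at q of at most 0.05, the 10 of highest fold, 5 with most fragments (with ties), 5 with most peaks, members without a peak, and in companion lists those at that q and the 3 highest. The lists are cytosolic ribosomal proteins, respiratory chain, other mitochondrial ribosome proteins, translation factors, assembly factors and cell markers. Sequences and gene positions are from RefSeq (GRCh38.p14). Alternatives were the gene assignment, peak width, fragments, fold, q, contigs, merged peaks and promoter rows.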

Additional observations from a re-analysis of the deposited data

How the results depend on the processing

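Of 54 alternative values, 42 kept within the counting interval or within 1.5 times the main count and 12 moved, all by construction of a stricter or looser rule or by the gene assignment. With a fold of at least 3, genes with a peak went from 70 to 19, genes with an exonic peak from 45 to 10, peaks from 424 to 29, and the median of each gene's highest fold (all rows, 2.29) to 3.68. With at least 5 RIP fragments, peaks went to 172, that median to 2.17, peaks at q of at most 0.05 from 3 to 1, and the promoter share from 25.5% to 44.8%. With the gene of the nearest start used for every row, peaks at that q went to 8 and the promoter share to 21.1%. At q of at most 0.1 there were 5 such peaks and at 0.01 there were 0. The alternatives of summits inside the gene and of RefSeq links were chosen after seeing the data. Folds rest on summits with a median of 3 fragments over all 424 rows, which limits their precision, and 24 of the 157 summits with 1 fragment had the input level at its floor. No paired analysis was possible because each group holds 1 library.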

Other observations

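MRPS9, MRPS6 and MRPL23, whose symbols the list does not carry, had peaks in the same range as the members. MRPS9, a small-subunit protein, had 6 peaks, 5 in exons, and the highest was in exon 5 of 11 at a fold of 3.09 (1.41 to 6.20) on 6 fragments. MRPS6, of the small subunit, had 7 peaks, 6 in introns, with a highest fold of 2.91 (1.21 to 7.99) on 2 fragments in a peak 11007 bp wide, and a peak of 11 fragments in exon 3 of 3 at 1.64 (0.885 to 2.82). MRPL23 had 1 intronic peak at 1.84 on 1 fragment, on an unlocalised contig of chromosome 11. With these genes the members with a row number 73.

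Wide rows carried little signal. Of the 424 member rows 13 were over 10 kb wide, 12 of these held 1 fragment, and none was at q of at most 0.05. Over the whole list 9.2% of peaks were over 10 kb wide. The rows on alternative contigs were 6, of which 4 were all the rows of MRPL45 and 2 were in MRPS36.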
